A study of Danio rerio with 24 samples.

Results

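The endoplasmic reticulum (ER) folding and secretion genes of the zebrafish liver were followed through 96 h of exposure to mercuric chloride (HgCl2). They were chosen by a rule on gene symbols, which was set with earlier results of these data known. The rule takes symbols that begin with pdia, sec, ssr, srp, derl, ero1, calr, canx, edem, cope, copa, copb, tmed, sel1l or p4hb. It also takes xbp1, atf6, herpud1, hyou1 and further named stress genes. This rule found 35 genes of the 5355 that the array measured with a probe of 1 gene symbol, each read by its probe of highest mean intensity. One of the 35, srpk1a, shares only the prefix: it is a kinase of splicing factors. The chaperone genes hspa5 and hsp90b1 and the transcription factor genes atf4a, atf4b and ddit3 belong to the rule but were not analysed here.

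Liver mRNA was measured on 24 arrays in 8 groups of 3: livers of adult wild-type zebrafish kept in clean water (control) or in water with HgCl2 at 200 µg/L, taken after 8, 24, 48 and 96 h. Each replicate pooled the livers of 4 fish, and the sex of the fish in a pool is not given. The liver RNA carried the dye Cy5, and a common reference of pooled male and female liver RNA carried Cy3 on every array, with no dye swap. All values are log2 ratios of liver over this reference after normalization, and a difference is the exposed mean minus the control mean of the same time, ± the standard error of the fit. A gene was called where limma's Benjamini-Hochberg adjusted p, taken over all 16340 probes, was under 0.05, and "rose" or "fell" is written only of such a gene.

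The ER is where secreted and membrane proteins enter the secretory pathway, fold, form disulfide bonds and are checked before export, and hepatocytes make large amounts of plasma proteins this way. When unfolded proteins build up, the sensors Ire1, Perk and Atf6 start the unfolded protein response, which raises chaperones and the machinery that returns misfolded proteins to the cytosol for degradation. Correctly folded cargo leaves in vesicles with a coat called COPII, and vesicles with the COPI coat bring escaped proteins and receptors back.

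The median Cy5 signal of an array was 253 to 902 on control and 316 to 789 on exposed arrays, and arrays of the same group correlated at r = 0.292 to 0.713. In Cy5, 23 of the 35 genes were above background on all 24 arrays, and none was saturated. For 4 genes (pdia5, srp9, tmed4 and srpk1a) at least 1 group had no array above background in Cy5, so a difference that uses that group has no measured level behind it. By the reference channel the arrays fell into 4 sets, of 8 and 4 control arrays and of 4 and 8 exposed arrays, so treatment and array set cannot be told apart. The 8 h comparison sets the first control set against the first exposed set, and the 96 h comparison the second against the second. At 24 h HgCl2 replicate 1 was in the first exposed set and replicates 2 and 3 in the second. At 48 h control replicates 1 and 2 were in the first control set and replicate 3 in the second. The livers are bulk tissue, in which a smaller share of one cell type and less mRNA per cell cannot be told apart.

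Most of the ER genes that passed the test at 24, 48 and 96 h were higher in exposed than in control livers. Among them were chaperones of the ER lumen and genes of ER-associated degradation. Of the 9 genes of the rule for protein entry into the ER 0 rose at any time. With 9 genes this is near the share of all probes that rose at a single time, 0.624% to 7.48%. At 8 h none of the 35 genes passed the test, against 0.624% of all probes higher and 0.349% lower; 5 of the 35 (14.3%) had an unadjusted limma p under 0.05, against 12.8% of all probes, and 3 had one in the t-test of the methods, against 9.89%. At 24 h 6 of the 35 rose (17.1%) and 0 fell, where 6.61% of all probes rose and 4.23% fell. At 48 h 5 rose (14.3%) and 1 fell (2.86%), against 5.29% and 3.37% of all probes. At 96 h 10 rose (28.6%) and 1 fell (2.86%), against 7.48% and 5.42%. On the average over the 4 times 15 rose (42.9%) and 4 fell (11.4%), against 17.7% and 13.8% of all probes. The median difference of the 35 was 0.14, 0.22, 0.20 and 0.37 at 8, 24, 48 and 96 h, where that of all probes was 0.01, 0.00, 0.01 and 0.01. All 3 exposed arrays lay above all 3 control arrays for 5, 9, 8 and 15 of the genes at the 4 times, against 9.44%, 14.7%, 15.9% and 19.4% of probes. The reverse held for 2, 1, 3 and 3 genes, against 8.49%, 13.1%, 13.8% and 17.1%. After adjustment the t-test of the methods called 0, 0, 0 and 5 of the 35 at 8, 24, 48 and 96 h. The share of all probes after that adjustment is not given here. Across the 8 groups the F test called 11 of the 35 (31.4%), against 18.6% of probes. Without control replicate 2 at 96 h the 96 h count of 11 was 4, and without HgCl2 replicate 1 at 48 h the 48 h count of 6 was 3.

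**Figure D1:**
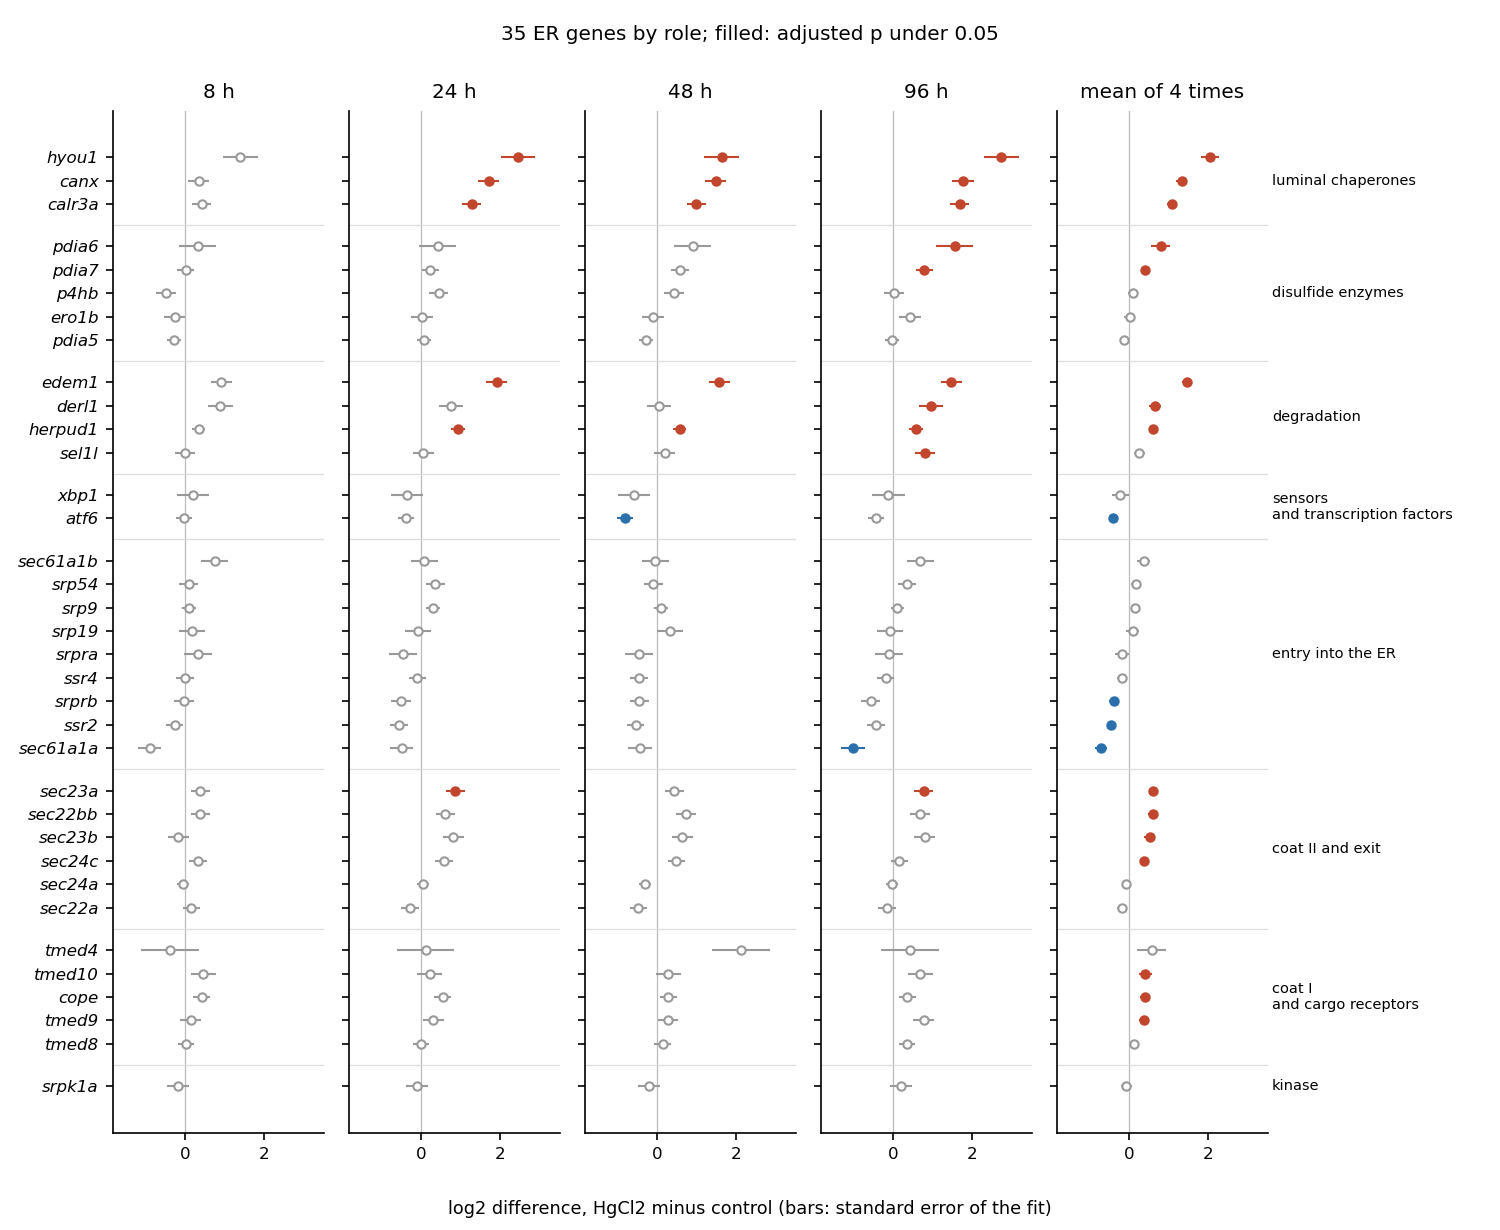
Log2 difference (HgCl2 minus control) of each of the 35 genes at 8, 24, 48 and 96 h and as the mean of the 4 times, grouped by role, with bars for the standard error of the fit. Filled red points rose and filled blue points fell at an adjusted p under 0.05: 0 at 8 h, 6 at 24 h, 6 at 48 h, 11 at 96 h and 19 on average.

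The 3 chaperones of the lumen all rose at 24, 48 and 96 h, where 6.61%, 5.29% and 7.48% of all probes rose. hyou1 encodes a large Hsp70-like chaperone that exchanges the nucleotide of the main ER Hsp70 and is known for its induction under ER stress and low oxygen. hyou1 on control arrays read 0.16, -0.68 and 0.41 at 8 h, then -0.39, 0.25 and 0.29 at 24 h, then -0.23, -0.16 and -0.01 at 48 h, then -0.04, -0.32 and -0.47 at 96 h. hyou1 on exposed arrays read 1.79, 1.19 and 1.08 at 8 h, then 1.07, 2.89 and 3.53 at 24 h, then 2.11, 0.98 and 1.39 at 48 h, then 2.55, 2.00 and 2.80 at 96 h. Every one of the 12 exposed arrays stood above all 12 control arrays. For this and later counts over the 12 exposed arrays, the share of all probes that separate as far is not given here. At 24 h HgCl2 replicate 1, the 1 array of that group in the first exposed set, was far lower than the others. Its difference was 1.39 ± 0.44 (adjusted p = 0.142) at 8 h and 2.45 ± 0.44 (adjusted p = 0.00127) at 24 h, 5.45-fold. It was 1.63 ± 0.44 (adjusted p = 0.0254) at 48 h and 2.73 ± 0.44 (adjusted p = 0.000375) at 96 h, 6.63-fold, which was the largest difference of the 35 genes in that comparison. On average the rise was 4.14-fold. The call at 48 h was lost when control replicate 1, control replicate 2 or HgCl2 replicate 1 of that time was left out, with adjusted p of 0.0778, 0.078 and 0.136. No background correction, plain background subtraction, the authors' value table and the t-test also ended it (adjusted p = 0.0683, 0.116, 0.148 and 0.15). With the Cy5 channel alone hyou1 passed at 96 h, and its adjusted p was 0.0688 at 24 h and 0.307 at 48 h. In Cy3 hyou1 was above background at 96 h on 2 of 3 control and 1 of 3 exposed arrays.

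canx encodes calnexin, a membrane-bound lectin that holds newly made glycoproteins until they fold. canx on control arrays read 0.14, -0.02 and -0.10 at 8 h, then -0.95, -0.71 and -0.08 at 24 h, then -0.40, -0.63 and -0.61 at 48 h, then -0.29, -0.82 and -0.62 at 96 h. canx on exposed arrays read 0.47, 0.38 and 0.23 at 8 h, then 0.51, 1.19 and 1.69 at 24 h, then 1.03, 0.55 and 1.22 at 48 h, then 1.14, 1.58 and 0.86 at 96 h. The exposed arrays again stood above all 12 control arrays, with the smallest gap at 8 h, where the control arrays were at their highest. The difference was 0.35 ± 0.26 (adjusted p = 0.632) at 8 h, 1.71 ± 0.26 (adjusted p = 0.000416) at 24 h, 1.48 ± 0.26 (adjusted p = 0.00149) at 48 h and 1.77 ± 0.26 (adjusted p = 0.000228) at 96 h, 3.4-fold. calr3a encodes a calreticulin, the soluble partner of calnexin in the same cycle, which also binds calcium. calr3a on control arrays read 0.50, -0.03 and 0.19 at 8 h, then -0.04, 0.00 and 0.42 at 24 h, then 0.55, 0.26 and 0.07 at 48 h, then 0.17, -0.07 and 0.04 at 96 h. calr3a on exposed arrays read 0.73, 0.47 and 0.70 at 8 h, then 0.80, 1.37 and 2.03 at 24 h, then 1.60, 1.07 and 1.19 at 48 h, then 1.68, 1.59 and 1.93 at 96 h. Only HgCl2 replicate 2 at 8 h fell within the range of the control arrays, and the 3 exposed arrays at 96 h were close together. Its difference went from 0.42 ± 0.24 (adjusted p = 0.492) at 8 h to 1.28 ± 0.24 (adjusted p = 0.00176) at 24 h, 0.99 ± 0.24 (adjusted p = 0.0135) at 48 h and 1.69 ± 0.24 (adjusted p = 0.000116) at 96 h, 3.22-fold. At 24 h HgCl2 replicate 1, the array of the first exposed set, was the lowest of the 3 exposed arrays for both canx and calr3a. Without HgCl2 replicate 1 at 48 h the adjusted p of calr3a at that time was 0.0809. With the Cy5 channel alone the adjusted p was 0.287 for canx at 48 h, and 0.202 and 0.172 for calr3a at 24 and 48 h, where the 24 h difference of calr3a was 0.66. When limma used only the 6 arrays of 24 h, the adjusted p of calr3a was 0.0562.

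**Figure D2:**
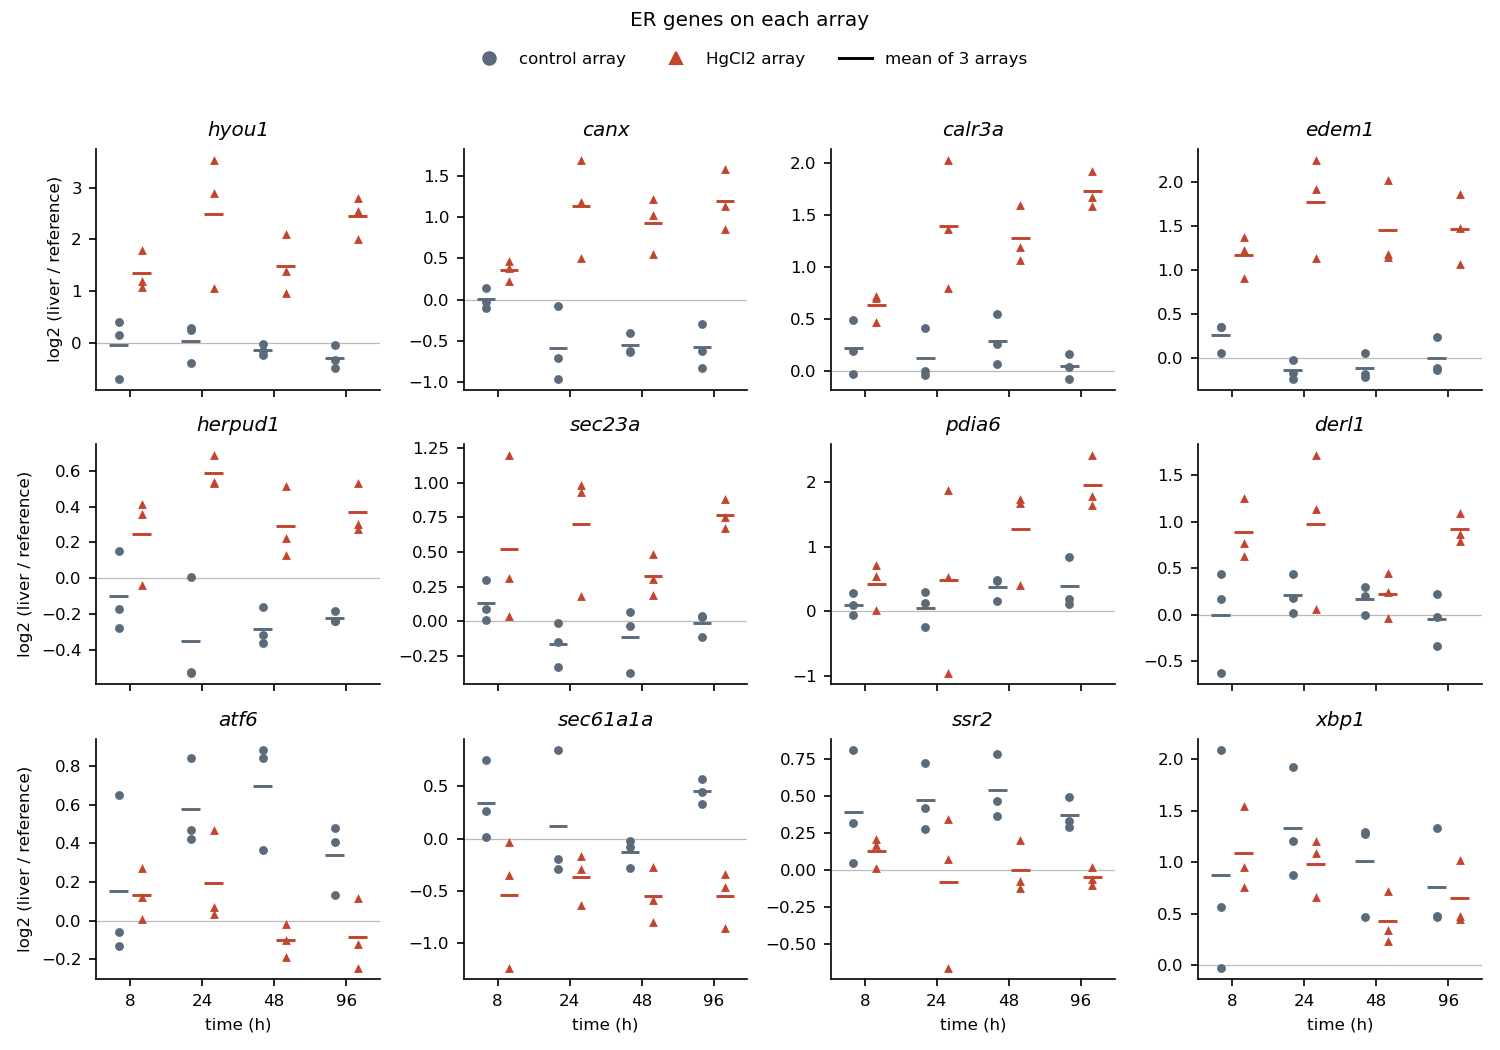
Log2 ratio of liver to reference on each array for 12 ER genes against time (8, 24, 48 and 96 h), with 3 control arrays (grey circles) and 3 HgCl2 arrays (red triangles) per time and lines at the group means. The vertical scale differs between panels. For hyou1, canx and edem1 all 12 exposed arrays lie above all 12 control arrays, and for sec61a1a 8 of 12 exposed arrays lie below all of them. The share of all probes that separate as far is not given.

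Of the 5 genes for disulfide bond formation, 2 protein disulfide isomerases rose at 96 h (40%, against 7.48% of all probes) and neither rose earlier. pdia6 encodes an isomerase of the ER lumen that works beside the main Hsp70. pdia6 on control arrays read -0.06, 0.09 and 0.28 at 8 h, then 0.13, 0.29 and -0.25 at 24 h, then 0.16, 0.46 and 0.49 at 48 h, then 0.20, 0.11 and 0.84 at 96 h. pdia6 on exposed arrays read 0.72, 0.03 and 0.54 at 8 h, then 0.53, -0.96 and 1.87 at 24 h, then 1.67, 0.41 and 1.73 at 48 h, then 2.42, 1.77 and 1.64 at 96 h. At 24 h the exposed arrays spread from below to above all 3 controls, and at 96 h all 3 were above them. The difference at 24 h was 0.42 ± 0.46 (adjusted p = 0.627), at 48 h 0.90 ± 0.46 (adjusted p = 0.241) and at 96 h 1.56 ± 0.46 (adjusted p = 0.0305), 2.94-fold. pdia6 was above background in Cy3 on 12 of 24 arrays only, and at 96 h on 0 of 3 control and 1 of 3 exposed arrays. pdia7 encodes another member of the isomerase family. In Cy3 pdia7 too was above background at 96 h on 0 of 3 control and 1 of 3 exposed arrays. The 96 h ratios of both genes thus have no measured reference level behind them on the control arrays. pdia7 on control arrays read 0.20, 0.04 and 0.24 at 8 h, then -0.35, -0.29 and 0.16 at 24 h, then -0.13, -0.30 and 0.01 at 48 h, then -0.48, -0.39 and -0.38 at 96 h. pdia7 on exposed arrays read -0.01, 0.17 and 0.38 at 8 h, then 0.23, -0.09 and 0.09 at 24 h, then 0.99, -0.06 and 0.38 at 48 h, then 0.24, 0.11 and 0.79 at 96 h. Its exposed arrays were above the controls at 96 h, by 0.80 ± 0.22 (adjusted p = 0.0203), 1.74-fold, while a second, dimmer probe of the gene differed by 0.17 ± 0.31 (adjusted p = 0.77). Leaving out 1 array ended the 96 h call of pdia6 in 3 of 6 cases and that of pdia7 in 4 of 6. The pdia6 call was also lost under plain background subtraction, the authors' value table, the replicate block and the t-test (adjusted p = 0.102, 0.0804, 0.0581 and 0.0889). That of pdia7 was lost with the authors' value table, the median over its probes and the t-test (adjusted p = 0.294, 0.19 and 0.123).

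p4hb encodes the classical protein disulfide isomerase, which is also a subunit of the collagen prolyl hydroxylase. p4hb on control arrays read -0.08, -0.90 and -0.83 at 8 h, then -0.92, -1.37 and -1.23 at 24 h, then -1.36, -0.99 and -0.68 at 48 h, then -0.60, -0.52 and -0.52 at 96 h. p4hb on exposed arrays read -1.18, -1.11 and -0.95 at 8 h, then -0.90, -0.88 and -0.40 at 24 h, then -0.85, -0.26 and -0.60 at 48 h, then -0.78, -0.80 and 0.05 at 96 h. All 3 exposed arrays lay below the controls at 8 h and above them at 24 h, and the groups overlapped at 48 and 96 h. No difference passed the test, from -0.48 ± 0.25 (adjusted p = 0.439) at 8 h to 0.44 ± 0.25 (adjusted p = 0.279) at 24 h and 0.04 ± 0.25 (adjusted p = 0.94) at 96 h. ero1b, whose product passes electrons from the isomerases to oxygen, and pdia5 did not pass either, with averages of 0.03 ± 0.14 (adjusted p = 0.896) and -0.12 ± 0.09 (adjusted p = 0.312). pdia5 was above background in Cy5 on 8 of 24 arrays, all of them control arrays.

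All 4 genes of ER-associated degradation rose at 96 h, and edem1 and herpud1 rose at 24 and 48 h as well. Of all probes 6.61%, 5.29% and 7.48% rose at 24, 48 and 96 h. edem1 encodes a mannosidase-like protein that marks misfolded glycoproteins for removal. edem1 on control arrays read 0.35, 0.35 and 0.06 at 8 h, then -0.03, -0.24 and -0.17 at 24 h, then -0.22, 0.05 and -0.19 at 48 h, then -0.11, 0.24 and -0.14 at 96 h. edem1 on exposed arrays read 1.38, 0.91 and 1.23 at 8 h, then 1.13, 1.92 and 2.25 at 24 h, then 2.03, 1.15 and 1.18 at 48 h, then 1.47, 1.86 and 1.06 at 96 h. No exposed array came as low as the highest control array at any time, 8 h included. The reference signal of edem1 was uneven between the groups. In Cy3 it was above background on 3, 2, 2 and 3 of the 3 control arrays at 8, 24, 48 and 96 h. On the exposed arrays this held for 1 of 3 at each time. The difference was 0.92 ± 0.26 (adjusted p = 0.101) at 8 h, 1.91 ± 0.26 (adjusted p = 0.000135) at 24 h, 3.76-fold, 1.57 ± 0.26 (adjusted p = 0.000862) at 48 h and 1.47 ± 0.26 (adjusted p = 0.000931) at 96 h. Under plain background subtraction edem1 was not called at 24, 48 or 96 h (adjusted p = 0.218, 0.404 and 0.343), nor with the value table of the authors (adjusted p = 0.208, 0.365 and 0.234), and with the Cy5 channel alone its 48 h difference was 0.57 (adjusted p = 0.326). herpud1 encodes a membrane protein of the degradation complex and is a well-known target of the unfolded protein response. herpud1 on control arrays read 0.15, -0.17 and -0.28 at 8 h, then -0.53, -0.53 and 0.01 at 24 h, then -0.36, -0.32 and -0.16 at 48 h, then -0.24, -0.18 and -0.24 at 96 h. herpud1 on exposed arrays read 0.36, 0.42 and -0.04 at 8 h, then 0.54, 0.69 and 0.53 at 24 h, then 0.51, 0.23 and 0.13 at 48 h, then 0.53, 0.30 and 0.27 at 96 h. Control and exposed arrays were separate at 24, 48 and 96 h, and at 8 h HgCl2 replicate 3 lay among the controls. Its rise was 0.94 ± 0.17 (adjusted p = 0.00139) at 24 h, 1.92-fold, 0.57 ± 0.17 (adjusted p = 0.0404) at 48 h and 0.59 ± 0.17 (adjusted p = 0.0262) at 96 h. The calls at 48 and 96 h were each lost in 4 of 6 cases when 1 array was left out, and that at 48 h also under 8 of 13 other settings. The 24 h call of herpud1 was lost with the Cy5 channel alone and in the t-test (adjusted p = 0.08 and 0.126).

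derl1 encodes derlin, a membrane protein of the channel that leads misfolded proteins back to the cytosol. derl1 on control arrays read 0.17, -0.63 and 0.44 at 8 h, then 0.02, 0.19 and 0.44 at 24 h, then 0.20, 0.29 and 0.00 at 48 h, then 0.22, -0.33 and -0.02 at 96 h. derl1 on exposed arrays read 1.25, 0.77 and 0.63 at 8 h, then 0.06, 1.14 and 1.72 at 24 h, then 0.45, -0.04 and 0.25 at 48 h, then 0.87, 1.09 and 0.79 at 96 h. The exposed arrays stood above the controls at 8 and 96 h, overlapped them at 24 h through HgCl2 replicate 1, and were level with them at 48 h. The difference was 0.89 ± 0.31 (adjusted p = 0.2) at 8 h, 0.76 ± 0.31 (adjusted p = 0.128) at 24 h, 0.05 ± 0.31 (adjusted p = 0.943) at 48 h and 0.96 ± 0.31 (adjusted p = 0.0462) at 96 h, 1.95-fold. sel1l encodes the scaffold of the ubiquitin ligase of this pathway. sel1l on control arrays read 0.22, 0.12 and 0.44 at 8 h, then 0.35, 0.14 and 0.31 at 24 h, then 0.40, 0.09 and 0.07 at 48 h, then 0.00, -0.08 and 0.14 at 96 h. sel1l on exposed arrays read -0.03, 0.90 and -0.09 at 8 h, then 0.48, 0.42 and 0.09 at 24 h, then 0.89, 0.38 and -0.11 at 48 h, then 1.02, 0.35 and 1.14 at 96 h. Only at 96 h were all 3 exposed arrays above the controls, by 0.81 ± 0.26 (adjusted p = 0.0412), 1.76-fold. The 96 h call ended in 6 of 6 cases for derl1 and 5 of 6 for sel1l when 1 array was left out. For sel1l the Cy5 channel itself differed by 0.02 at 96 h and the reference channel by -0.70.

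Neither of the 2 transcription factors of the stress response rose. atf6 encodes a sensor that is cut in the Golgi to release a transcription factor for chaperone genes. atf6 on control arrays read -0.13, -0.06 and 0.65 at 8 h, then 0.47, 0.84 and 0.42 at 24 h, then 0.88, 0.84 and 0.37 at 48 h, then 0.41, 0.48 and 0.14 at 96 h. atf6 on exposed arrays read 0.12, 0.27 and 0.01 at 8 h, then 0.47, 0.07 and 0.04 at 24 h, then -0.02, -0.19 and -0.10 at 48 h, then -0.12, 0.12 and -0.24 at 96 h. At 48 and 96 h all 3 exposed arrays were below all 3 controls, and at 8 and 24 h the groups overlapped. The difference was -0.02 ± 0.20 (adjusted p = 0.982) at 8 h, -0.39 ± 0.20 (adjusted p = 0.244) at 24 h, -0.80 ± 0.20 (adjusted p = 0.0184) at 48 h, 1.74-fold lower, and -0.42 ± 0.20 (adjusted p = 0.176) at 96 h. atf6 also fell on average, by 0.41 ± 0.10 (adjusted p = 0.00418), and the 48 h call ended without control replicate 1, control replicate 2 or HgCl2 replicate 2 of that time (adjusted p of 0.0819, 0.0812 and 0.0577). xbp1 encodes the factor that Ire1 activates by removing a short intron from its mRNA, a step that 1 probe per gene does not measure. xbp1 on control arrays read 0.56, -0.03 and 2.1 at 8 h, then 0.87, 1.21 and 1.93 at 24 h, then 1.29, 1.28 and 0.46 at 48 h, then 0.48, 0.47 and 1.33 at 96 h. xbp1 on exposed arrays read 0.76, 0.95 and 1.55 at 8 h, then 1.09, 0.66 and 1.21 at 24 h, then 0.72, 0.34 and 0.23 at 48 h, then 0.48, 0.45 and 1.02 at 96 h. The ranges overlapped at all 4 times, the 3 controls at 8 h lay far apart, and the differences ran from -0.58 ± 0.41 (adjusted p = 0.412) at 48 h to 0.21 ± 0.41 (adjusted p = 0.887) at 8 h.

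Of the 9 genes for entry into the ER, 0 rose in any comparison and 3 fell on average (33.3%). On average 17.7% of all probes rose and 13.8% fell. sec61a1a encodes an alpha subunit of the Sec61 channel, through which proteins cross the ER membrane. sec61a1a on control arrays read 0.02, 0.26 and 0.75 at 8 h, then -0.20, 0.85 and -0.30 at 24 h, then -0.28, -0.02 and -0.08 at 48 h, then 0.57, 0.34 and 0.45 at 96 h. sec61a1a on exposed arrays read -0.35, -1.24 and -0.03 at 8 h, then -0.64, -0.16 and -0.30 at 24 h, then -0.80, -0.59 and -0.27 at 48 h, then -0.47, -0.86 and -0.34 at 96 h. At 8 and 96 h the exposed arrays were all below the controls of that time, at 96 h all below zero against controls all above it, and 8 of the 12 exposed arrays were below every control array. The difference was -0.88 ± 0.29 (adjusted p = 0.17) at 8 h, -0.49 ± 0.29 (adjusted p = 0.323) at 24 h, -0.43 ± 0.29 (adjusted p = 0.401) at 48 h and -1.0 ± 0.29 (adjusted p = 0.0281) at 96 h, 2.01-fold lower. On average it was -0.70 ± 0.15 (adjusted p = 0.00106). The 96 h call ended in 4 of 6 cases when 1 array was left out. It was also lost with the Cy5 channel alone (adjusted p = 0.442) and in the t-test of the methods (adjusted p = 0.0622). Its paralog sec61a1b, read by another probe, was not called, with an average of 0.38 ± 0.17 (adjusted p = 0.0993) and 1 of 12 exposed arrays above all controls; how far the 2 probes share transcripts was not tested.

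ssr2, which encodes a subunit of the translocon-associated complex beside the Sec61 channel, ranged from 0.05 to 0.81, with a median of 0.39 on control arrays and from -0.66 to 0.34, with a median of 0.02 on exposed arrays. On 7 of 12 exposed arrays it was below all 12 controls. It fell on average by 0.44 ± 0.11 (adjusted p = 0.00397) and was not called at any single time. srprb, for a subunit of the receptor that docks the signal recognition particle, ranged from -0.94 to 0.18, with a median of 0.00 on control and -1.07 to 0.00, with a median of -0.40 on exposed arrays, and fell on average by 0.38 ± 0.12 (adjusted p = 0.0212). Control replicate 2 at 8 h gave its lowest control value. The other 5 genes of this group, ssr4, srp9, srp19, srp54 and srpra, had averages between -0.18 and 0.18 and none passed. srp9 was not above background in Cy5 or Cy3 on the 3 control arrays at 96 h.

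Of the 6 genes for exit in COPII vesicles, 4 rose on average (66.7%, against 17.7% of all probes): sec23a, sec22bb, sec23b and sec24c. sec23a encodes an inner coat protein that acts on the GTPase Sar1. sec23a on control arrays read 0.30, 0.09 and 0.01 at 8 h, then -0.15, -0.33 and -0.01 at 24 h, then -0.38, -0.04 and 0.06 at 48 h, then 0.04, 0.03 and -0.11 at 96 h. sec23a on exposed arrays read 1.2, 0.31 and 0.04 at 8 h, then 0.18, 0.93 and 0.98 at 24 h, then 0.48, 0.30 and 0.19 at 48 h, then 0.68, 0.88 and 0.75 at 96 h. Exposed arrays were above controls at 24, 48 and 96 h, and at 8 h HgCl2 replicate 1 was high and replicate 3 lay among the controls. It rose by 0.86 ± 0.24 (adjusted p = 0.0224) at 24 h, 1.82-fold, and 0.78 ± 0.24 (adjusted p = 0.0334) at 96 h, 1.72-fold, with 0.44 ± 0.24 (adjusted p = 0.263) at 48 h. At 96 h the Cy5 channel differed by 0.0026 and the reference by -0.69, and leaving out any 1 of the 6 arrays ended that call. The 24 h call of sec23a ended in 4 of 6 such cases and under 5 of 13 other settings, and a second, dimmer probe of the gene was called at no time, with 0.55 ± 0.33 (adjusted p = 0.321) at 24 h and 0.37 ± 0.33 (adjusted p = 0.494) at 96 h. sec22bb, for a membrane-fusion protein of these vesicles, differed on average by 0.61 ± 0.12 (adjusted p = 0.000777), and 9 of its 12 exposed arrays were above all controls. The averages of sec23b and sec24c, both for coat proteins, were 0.52 ± 0.13 (adjusted p = 0.00505) and 0.39 ± 0.11 (adjusted p = 0.0106). With the Cy5 channel alone the averages of sec23a and sec24c did not pass (adjusted p = 0.52 and 0.0556). sec24a and sec22a did not pass, at -0.08 ± 0.08 (adjusted p = 0.475) and -0.18 ± 0.11 (adjusted p = 0.226).

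For the COPI coat and the p24 family of cargo receptors, all 5 differences were above 0 at 24, 48 and 96 h, and 0 of the 5 passed limma's test at a single time, with 0, 1, 1 and 2 of the 5 at an unadjusted p under 0.05, against 12.8%, 25.3%, 24.4% and 28.1% of all probes. On average cope, for the epsilon subunit of the coat, rose by 0.40 ± 0.11 (adjusted p = 0.00672), and the cargo receptor genes tmed9 and tmed10 by 0.38 ± 0.13 (adjusted p = 0.0308) and 0.42 ± 0.15 (adjusted p = 0.0439). With the Cy5 channel alone the average of cope did not pass (adjusted p = 0.56). Leaving out 1 array ended the average call of tmed9 in 8 of 24 cases and that of tmed10 in 16 of 24. The brightest probe of tmed9 differed by 0.78 ± 0.26 (adjusted p = 0.0527) at 96 h, and its second probe by 1.44 ± 0.31 (adjusted p = 0.00412). tmed4 had the largest difference of the 35 genes at 48 h, 2.12 ± 0.73 (adjusted p = 0.0731), which did not pass. It rested on control replicate 3 at 48 h, at -4.90, where the other 23 arrays lay between -1.95 and 0.38, and no control array at 48 h was above background in Cy5. tmed8 was at 0.13 ± 0.10 (adjusted p = 0.335) on average. The kinase gene srpk1a, which only shares a prefix with the rest, was at -0.06 ± 0.14 (adjusted p = 0.757).

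By limma's test 0 of the 35 genes were called between control livers at 24, 48 or 96 h and those at 8 h, with 5, 4 and 3 at an unadjusted limma p under 0.05 (14.3%, 11.4% and 8.57%, against 6.75%, 6.29% and 9.96% of all probes). Those 3 comparisons called 0.00612%, 0% and 0.214% of all probes. The change of the exposure effect between 2 times was called for 0 of the genes in each of 6 limma comparisons; 6, 5 and 6 genes had an unadjusted p under 0.05 from 8 to 24, 48 and 96 h, and 0 in the other 3. These are 17.1%, 14.3% and 17.1% of the genes, against 8.82%, 11.8% and 15.8% of all probes, and in the other 3 the share of all probes was 5.27%, 11.7% and 5.37%. Of all probes 0%, 0.0918% and 0.991% were called from 8 to 24, 48 and 96 h, 0.00612% and 0.104% from 24 to 48 and 96 h, and 0% from 48 to 96 h. The changes from 8 to 96 h nearest to the threshold were 1.42 ± 0.37 for canx and 1.27 ± 0.34 for calr3a (adjusted p = 0.0704 and 0.0704). The calls at 24 h and their lack at 8 h therefore do not show that the effect differed between these times. HgCl2 replicate 1 at 24 h, in the first exposed set, was the lowest exposed array of that time for hyou1, canx, calr3a, edem1 and sec23a. This was not so for herpud1. The part of the array set in this was not tested.

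The reference channel holds the same RNA on every array, so its level in the exposed and control arrays of a time bears on the ratios. After quantile normalization of each channel, the median Cy3 difference of the 35 genes was -0.30 at 8 h, -0.11 at 24 h, -0.10 at 48 h and 0.18 at 96 h. The median Cy5 difference was -0.10, 0.16, 0.24 and 0.32. The Cy3 difference was larger in size than the Cy5 difference for 21, 10, 9 and 12 of the genes, which was the majority at 8 h only. Of the 5355 genes tested it was larger for 2828, 2148, 2257 and 2285, also the majority at 8 h only. For hyou1 the Cy5 differences were 0.66, 1.98, 1.13 and 2.45 and the Cy3 differences -1.05, -0.18, -0.36 and 0.035. For edem1 they were -0.26, 1.42, 0.57 and 0.93 in Cy5 and -1.29, -0.42, -0.87 and -0.40 in Cy3, so its 8 h separation was not in Cy5. For sec61a1a at 96 h they were -0.55 in Cy5 and 1.12 in Cy3, and for atf6 at 48 h -1.97 and -0.83. The part of the array sets in these differences was not tested.

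**Figure D3:**
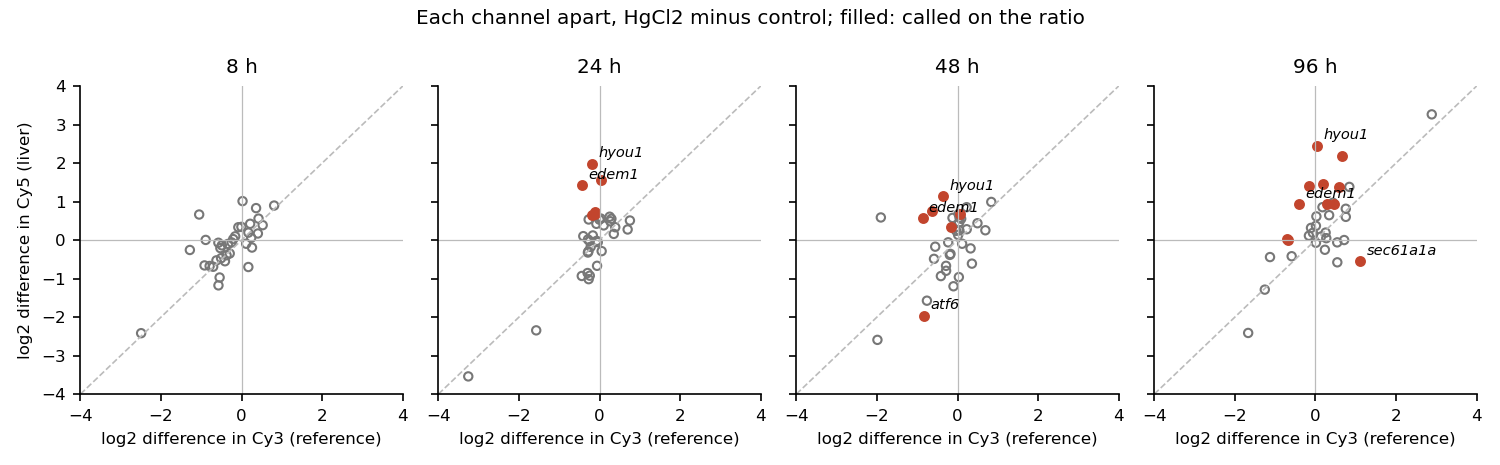
Log2 difference (HgCl2 minus control) of each of the 35 genes in the liver channel Cy5 (vertical) against the reference channel Cy3 (horizontal) at 8, 24, 48 and 96 h, each channel quantile normalized. Filled points were called on the ratio, and points near the dashed diagonal moved alike in both channels. hyou1 at 96 h lies near 0 on the reference axis (Cy3 difference 0.035). Its Cy3 signal there was above background on 2 of 3 control and 1 of 3 exposed arrays.

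ER genes outside the symbol rule were taken from a list of 90 further folding, stress and transport genes, of which 26 were measured. This list too was made with earlier results of these data known. At 8, 24, 48 and 96 h 1, 7, 5 and 7 of the 26 rose (3.85%, 26.9%, 19.2% and 26.9%), against 0.624%, 6.61%, 5.29% and 7.48% of all probes. At these times 0, 0, 0 and 1 fell, against 0.349%, 4.23%, 3.37% and 5.42% of all probes. On average 12 rose (46.2%) and 2 fell (7.69%), against 17.7% and 13.8% of all probes. The 26 averages had a median of 0.26. The largest averages were those of co-chaperones. sdf2l1, whose product works with the ER Hsp70, rose by 2.14 ± 0.41 (adjusted p = 0.00208) at 24 h and 3.07 ± 0.41 (adjusted p = 6.26e-05) at 96 h, and dnajb11, an Hsp40 of the lumen, by 1.74 ± 0.31 (adjusted p = 0.00129) and 2.14 ± 0.31 (adjusted p = 0.000173). chac1, which degrades glutathione and is a target of the Perk branch in mammals, was the 1 gene called at 8 h, by 1.62 ± 0.35 (adjusted p = 0.0297), and it rose at all 4 times. Calls of the 26 genes, chac1 at 8 h included, come from the main fit only. They were not checked under other settings, with arrays left out or in each channel apart. The ligase gene syvn1, partner of sel1l, rose by 1.37 ± 0.30 (adjusted p = 0.00473) at 96 h and the lectin gene os9 of the same complex by 1.44 ± 0.29 (adjusted p = 0.00253). The probes of sdf2l1, syvn1 and os9 were dim, with median Cy5 signals of 310, 297.5 and 386.5. Those of dnajb11 and chac1 were 637 and 1033.5. tram1, for a protein beside the Sec61 channel, rose by 1.14 ± 0.30 (adjusted p = 0.0196) at 24 h and 1.28 ± 0.30 (adjusted p = 0.00801) at 96 h, where 0 of the 9 entry genes of the rule rose. The disulfide enzyme gene txndc5 rose at 24 and 96 h, by 0.71 ± 0.22 (adjusted p = 0.038) and 0.77 ± 0.22 (adjusted p = 0.0236), and the ubiquitin-conjugating enzyme gene ube2g2 at 48 h, by 0.72 ± 0.20 (adjusted p = 0.0288). The gene that fell at 96 h was mbtps2, for the protease that releases Atf6 from the membrane, at -0.70 ± 0.21 (adjusted p = 0.0302); on average creb3l3a, for a liver transcription factor related to Atf6, fell too, at -0.45 ± 0.09 (adjusted p = 0.000706). ppp1r15a, for the phosphatase subunit that restarts translation, rose on average only, by 0.68 ± 0.19 (adjusted p = 0.00943), and trib3 did not pass, at -0.07 ± 0.08 (adjusted p = 0.59).

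**Figure D4:**
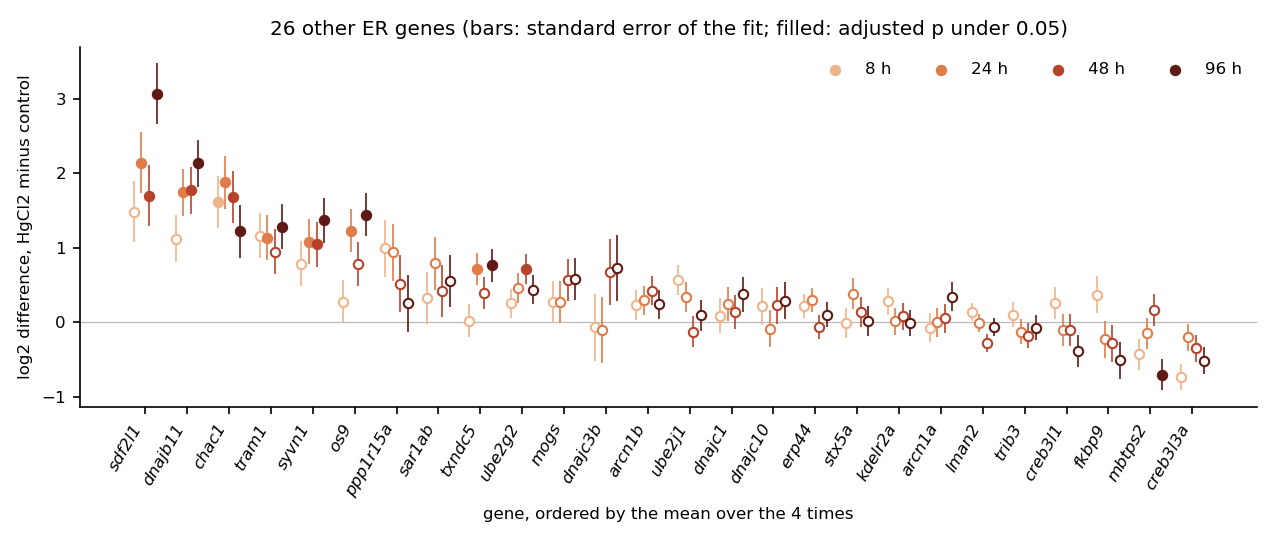
Log2 difference (HgCl2 minus control) of 26 ER genes outside the symbol rule at 8, 24, 48 and 96 h, with bars for the standard error of the fit and filled points at an adjusted p under 0.05. The genes are ordered by their mean over the 4 times, from sdf2l1 at 2.1 to creb3l3a at -0.45.

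Markers of the cells that a liver sample can hold moved as well, and their part in the ER results was not tested. Of all probes 0.624%, 6.61%, 5.29% and 7.48% rose at 8, 24, 48 and 96 h, and 17.7% on average. The shares that fell were 0.349%, 4.23%, 3.37% and 5.42%, and 13.8% on average. Of the exocrine pancreas, a tissue rich in ER folding genes, 4 of 21 listed markers were measured (prss1, cpa5, cpb1 and cel.2): 3 fell at 96 h and 4 on average, and 0 rose at any time. Their mean log2 ratio was 0.29 to 0.61 on the control and -1.74 to -1.15 on the exposed arrays at 96 h. Of leukocytes, 9 of 16 markers were measured, of which 0, 0, 1 and 5 rose and 0, 1, 0 and 0 fell at the 4 times, the 1 that fell being cd74a; their mean was 0.05 to 0.24 on control and 0.97 to 1.13 on exposed arrays at 96 h, and -0.26 to 0.13 and -0.01 to 0.10 at 24 h. Of hepatocytes, 5 of 15 were measured, and cp, for ceruloplasmin, rose by 1.79 ± 0.38 (adjusted p = 0.0039) at 96 h. The other 4 were saturated in Cy5 on some arrays, tfa on 23, apoa1b on 24, fabp10a on 16 and rbp4 on 6 of 24, so no direction is given for them. Of the oestrogen response of female liver, 3 of 9 were measured (vtg3, esr1 and nots). esr1 and nots fell at 24 and 48 h, and esr1 also at 96 h. vtg3 passed the test as lower at 24, 48 and 96 h. Its spots were saturated in Cy5 on 11 and in Cy3 on 14 of 24 arrays, so that direction is not relied on either. The mean of the 3 at 96 h, vtg3 included, was -0.13 to 0.39 on control and -2.83 to -2.53 on exposed arrays. Of red blood cells 5 of 14 were measured, of which 2 fell at 24, 48 and 96 h. Of ovary 3 of 11 were measured, and all 3 rose on average; of intestine 3 of 6 were, and 1 fell at 96 h.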

How the data were processed

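Two-colour arrays of spotted oligonucleotides were scanned by the authors, and for each spot the median foreground and background intensity was deposited without normalization, per the file headers. The percent of a spot's pixels that exceed background plus 2 SD is also deposited; a spot with over 50% was taken as above background. The authors' own table of log2 ratios, background-subtracted and scaled by 1 constant per array, was used as an alternative only; the lowess step that the methods name is not in them. The methods name a GenePix scanner and an R package for lowess; their versions are not given in the sources used here.

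Intensities were processed in R 4.3.3 with limma 3.58.1: normexp correction with an offset of 50, loess within each array with 172 beta-actin spots at weight 0, 8 group means (16 residual degrees of freedom), and Benjamini-Hochberg adjustment over 16340 probes per comparison. Of 16512 spots, 6088 have 1 gene symbol, 75 several and 10349 none; 38 probes belong to the 35 genes, and 1 further probe that names several genes was left out. Symbols come from the platform annotation, updated through gene identifiers, and the rule found the same 35 genes on updated symbols. Each replicate is a separate group of fish per the labels. The array number limits the precision.

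The genes and the lists of further ER genes and cell type markers were chosen with earlier results of these data known. Values of every array are given for the named stress genes, calreticulin and p4hb and for the genes called at a single time; the others are given by range and count. Same-numbered replicates share only a number: over 12 pairs their deviations correlated at r = -0.03 to 0.19, with 1 pair over 0.1, so no block was used. Array sets come from clustering the reference channel, with the number of sets fixed at 4. Alternatives were other background corrections, normalizations and value sources, a filter on dim probes, the replicate block, array weights, Cy5 alone, all probes of a gene, updated symbols, the arrays of 1 time, the t-test of the methods and leaving out each array. The steps were tested on simulated data. Promoter and protein sequences were not used here. Figures were drawn with matplotlib 3.10.9 under Python 3.11.15.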

Additional observations from a re-analysis of the deposited data

How the results depend on the processing

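Of the 42 calls of single genes, the averages of hyou1, canx, calr3a, pdia6, atf6, derl1, edem1, herpud1, sec61a1a, ssr2, srprb, sec22bb and sec23b kept direction and call in all 11 settings and all 24 leave-outs, and so did hyou1 and calr3a at 96 h in 13 settings and 6 leave-outs. Over the called genes, 435 of 508 checks under another setting kept the call and 73 lost it. Some of these checks could not change a call. Aquantile normalization does not alter log ratios, and updated symbols gave the same genes. The median over all probes can change only pdia7, sec23a and tmed9, which have a second probe. The 435 kept checks, and the counts of 11 and 13 settings, therefore overstate how far the calls were tested. Plain background subtraction gave 1 call at 8 h (main value 0), 3 at 48 h (6), 7 at 96 h (11) and 5 in the F test (11). It also turned srp9 at 96 h from 0.12 in the main fit to -1.47 (adjusted p = 0.0296). Over all settings the 96 h difference of srp9 ran from -1.47 to 3.26. The value table of the authors gave 1 call at 8 h. Array weights gave 2 changes of the effect between times (0) and 17 calls in the F test. The Cy5 channel alone gave 4, 3 and 2 calls at 8, 24 and 48 h, 8 changes between times, 9 changes of controls over time (0) and 21 calls in the F test; it turned pdia5 at 24 h to -3.54 (adjusted p = 0.000361) and the average of tmed9 to -0.20 (adjusted p = 0.206). The t-test of the methods called 0 genes at 24 h, 0 at 48 h and 5 at 96 h after adjustment, and 7, 10 and 18 before it, against 18.9%, 19.2% and 25.5% of probes. The cause of these differences was not tested. Apart from the unadjusted t-test, no share of all probes is given beside the counts under other settings. They show only how the counts of the main fit moved. With the replicate block, which has 8 residual degrees of freedom, 0, 7, 6 and 13 genes were called at the 4 times, 19 on average and 2 as changes between times; it could not be fitted for the controls over time or the F test, and the pairing it assumes was not borne out. Aquantile leaves log ratios as they are by construction. Leaving out 1 array gave 0 calls at 8 h, 5 to 9 at 24 h, 3 to 6 at 48 h, 4 to 9 at 96 h, 17 to 20 on average, 0 to 2 changes between times, 0 over time in controls and 6 to 13 in the F test. At 96 h the count was 5, 4 and 5 without control replicate 1, 2 or 3 and 6 without HgCl2 replicate 1. At 48 h it was 3 without HgCl2 replicate 1, and the 2 changes between times came without HgCl2 replicate 1 or 3 at 24 h. The F test gave 6 or 7 without control replicate 1 or 2 at 24, 48 or 96 h or HgCl2 replicate 1 at 48 or 96 h. Dim reference signal limits pdia5, pdia6, pdia7, srp19, tmed4 and srpk1a, each above background in Cy3 on at most 12 of 24 arrays.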
